A study of Mus musculus with 8 samples.

Results

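The 38 genes described here mark the endothelium, the cell layer that lines blood and lymphatic vessels, and were measured by RNA sequencing in lung tumour nodules of mice. They were taken by symbol from the deposited count table as a list of pan-endothelial, capillary and lymphatic markers. All 38 of 38 were found among the 52459 symbols of the table, and all 38 were among the 14085 genes with enough counts to test. The nodules came from a genetically engineered mouse model of lung cancer on a mixed background, in 4 groups of 2 libraries. The combination group had JQ1 and anti-PD-1 antibody together, the JQ1 group had JQ1, the anti-PD-1 group had the antibody, and the vehicle group was the control. JQ1 is a small molecule that blocks the bromodomains by which BET proteins read acetylated chromatin, and anti-PD-1 blocks an inhibitory receptor of T cells. The animals of every group carry the tumour model, and the sources used here do not give doses, times or ages. Nothing in the labels says that a group's libraries are from different animals; by the sex read from the counts, the combination, JQ1 and anti-PD-1 groups each joined a female and a male, while both vehicle libraries were male and may share a source. The p-values reflect the spread among these samples only.

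Vessels grow when VEGF ligands from the tissue act on receptor tyrosine kinases of the endothelial surface. Angiopoietins acting through Tie receptors, and BMP9 acting through ALK1 and endoglin, hold established vessels quiet. Junction proteins seal neighbouring endothelial cells to each other, and ETS and SOX family factors turn on the genes that give the cells their identity. In the capillaries of the lung, the endothelium also carries enzymes and carriers that work on the passing blood. In mouse lung, Ednrb and Car4 mark the capillary cells that face the airspace, and Gpihbp1, Aplnr and Plvap are known from the general capillary cells.

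Library totals ranged between 2719816 counts (combination replicate 1) and 15224108 counts (vehicle replicate 2), and the 38 genes together had between 2096 and 11905 counts in these same libraries. Every gene of the 38 had at least 1 count in every library, and 32 had at least 10. Ribosomal RNA, summed over 369 annotated genes, took 46.0% and 52.5% of counts in the combination libraries, 35.0% and 27.7% with JQ1, 23.5% and 24.2% with anti-PD-1, and 23.7% and 21.8% in vehicle. It moved with the groups, and its part in the results below was not tested beyond a fit that held it as a term. By Xist and Y-linked counts, combination replicate 1, JQ1 replicate 1 and anti-PD-1 replicate 2 were female. Vehicle replicate 1 stood apart for the endothelial genes: it held the lowest value of 24 of the 38, and vehicle replicate 2 was above it for 30 of 38 (78.9%), against 50.6% of all genes tested.

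Endothelial RNA as a whole was highest in the combination libraries and lowest in vehicle. Levels are given as CPM, counts scaled to each library's depth and composition. The 38 genes summed to 882 and 932 CPM in the combination libraries, 759.7 and 759 CPM with JQ1, 749.6 and 797 CPM with anti-PD-1, and 457 and 683 CPM in vehicle. The mean sums were 907 ± 35.2, 759 ± 0.429, 773 ± 33.4 and 570.1 ± 159.8 CPM in the same order (SD, n = 2 each). No vehicle library reached the sum of any treated library, and the difference between the vehicle libraries was larger than that between the replicates of any treated group. Because Ace and Ptprb make up much of these sums, the median gene is also given: on the log2(CPM + 0.5) scale, it lay at 0.30 and 0.44 from each gene's mean over the libraries in the combination, at 0.20 and −0.06 with JQ1, at 0.05 and −0.02 with anti-PD-1, and at −0.71 and −0.24 in vehicle. In bulk tissue, fewer endothelial cells and less RNA per endothelial cell cannot be told apart.

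**Figure D1:**
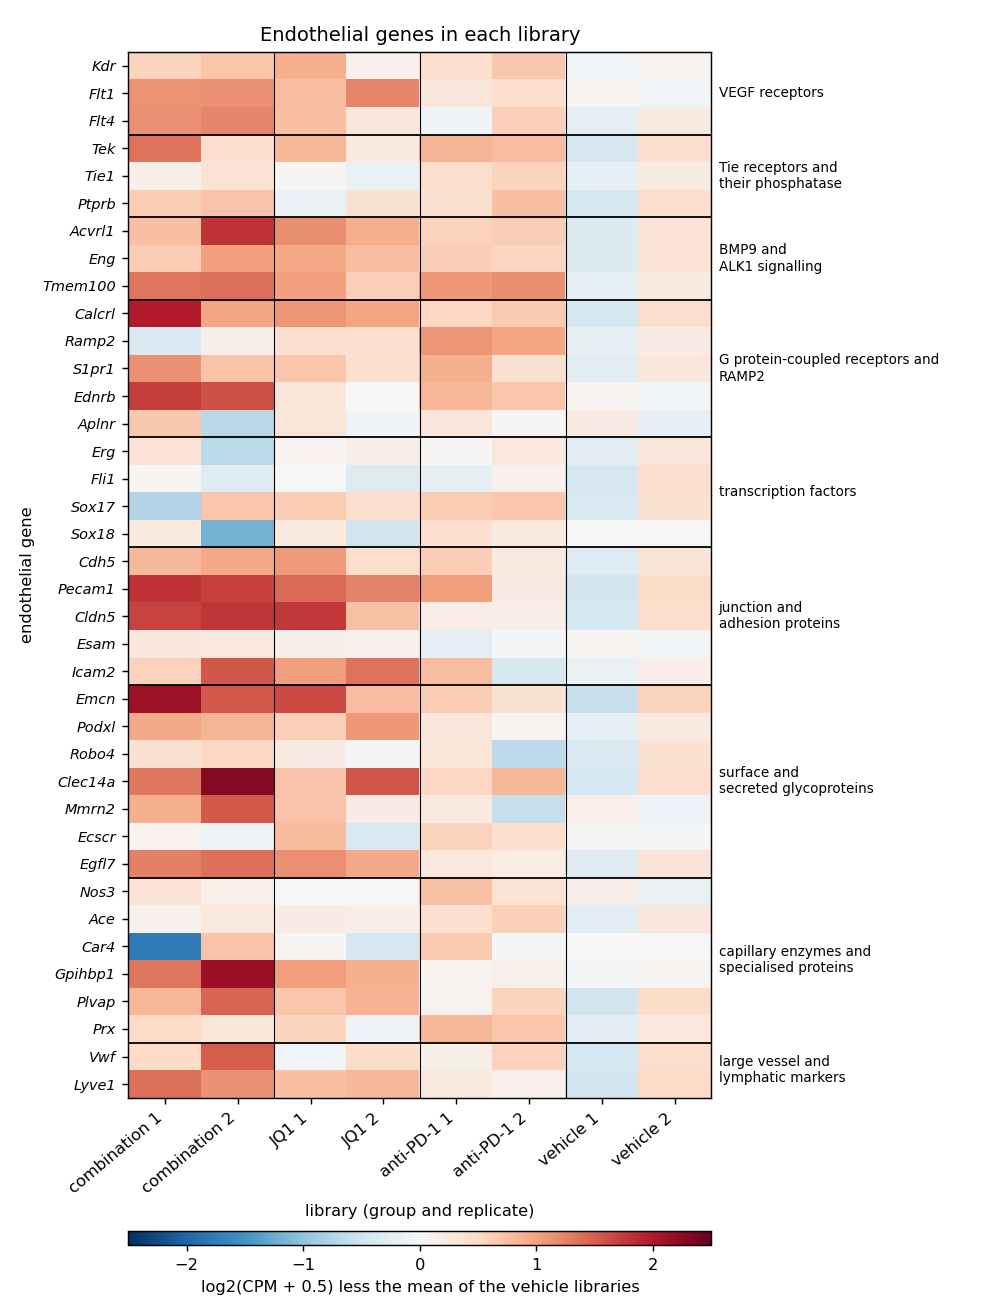
Heat map of the 38 endothelial genes (rows, grouped by role) in the 8 libraries (columns), coloured by log2(CPM + 0.5) after subtracting the vehicle mean. The combination columns are red for junction and surface genes such as Pecam1, Cldn5 and Emcn, and also for genes of other roles such as Gpihbp1 and Calcrl. The rows of the transcription factors Erg, Fli1, Sox17 and Sox18 show no such block.

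In the combination against vehicle, 4 of the 38 endothelial genes rose and 0 fell. These 4 were the VEGF receptor Flt1, the endothelin receptor Ednrb, the junction protein Pecam1 and the capillary lipase carrier Gpihbp1, and their log2 fold changes lay between 1.15 and 1.99 (adjusted p between 0.0345 and 0.0467, edgeR's quasi-likelihood F-test, Benjamini-Hochberg adjusted over all genes). The called share of 10.5% compares with 2.44% of all genes tested that rose and 2.36% that fell. Another 16 of the 38 had an unadjusted p under 0.05 and missed the adjusted threshold, making 20 in all and all of them higher, where 27.3% of all genes had such a p in either direction. For 27 of 38 genes (71.1%) both combination libraries were above both vehicle libraries, as were 29.5% of all genes tested, and for 0 of 38 both were below, against 29.1% of all genes. The median log2 fold change was 0.89, with 33 of 38 positive and a range of −0.40 for Sox18 to 2.06 for Clec14a, and the median of all genes was 0.07. All 4 calls ended when only the combination and vehicle libraries were fitted, with sex as a term, and with ribosomal RNA share as a term, with 0 of 38 called each time. They also ended without combination replicate 2, anti-PD-1 replicate 1 or 2, or vehicle replicate 1 or 2. Those fits leave 1 library in a group and called fewer of all genes as well, so the loss was not particular to the endothelial genes. Over all fits with 1 library left out, log2 fold changes were 1.06 to 1.21 for Flt1 and 1.78 to 1.95 for Ednrb. They were 1.31 to 2.31 for Pecam1 and 1.46 to 2.31 for Gpihbp1. Without combination replicate 1, Flt1, Ednrb and Pecam1 were no longer called. The median was 0.38 with the ribosomal term and 0.61 without vehicle replicate 1.

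With JQ1 alone, the endothelial genes stood above vehicle without any passing the test. Of the 38, 34 had a positive log2 fold change, the median was 0.55 against 0.07 for all genes, and the values ran from −0.21 for Fli1 to 1.91 for Icam2. Both JQ1 libraries were above both vehicle libraries for 23 of 38 genes (60.5%), against 26.3% of all genes, and below for 0, against 22.9%. edgeR's quasi-likelihood test called 0 of 38, as it did 0% of all genes, and the smallest adjusted p was 0.443. At an unadjusted p under 0.05 there were 12 of 38, all higher, and DESeq2, limma voom and limma trend called 0 of 38; over all genes, 1427 had such a p, and DESeq2 called 85, voom 1 and trend 0. Without vehicle replicate 1 the median was 0.34.

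With anti-PD-1 alone, the highest and the lowest gene were others, a difference that was not tested. Again 34 of 38 were positive, with a median of 0.49 against 0.00 for all genes, but the highest was Tmem100 at 1.65, and the lowest was Robo4 at −0.15. Both anti-PD-1 libraries were above both vehicle libraries for 19 of 38 genes (50%), against 14.4% of all genes, and below for 0, against 16%. The same edgeR test called 0 of 38 and 0% of all genes, with every adjusted p at 1. Unadjusted p under 0.05 was reached by 2 genes, Ramp2 and Tmem100, and DESeq2, limma voom and limma trend called 0 of 38; over all genes, 278 had such a p, DESeq2 called 11, and voom and trend called 0. The 3 comparisons share the vehicle libraries, so a low vehicle library raises all of them together: without vehicle replicate 1 the median with anti-PD-1 was 0.24.

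**Figure D2:**
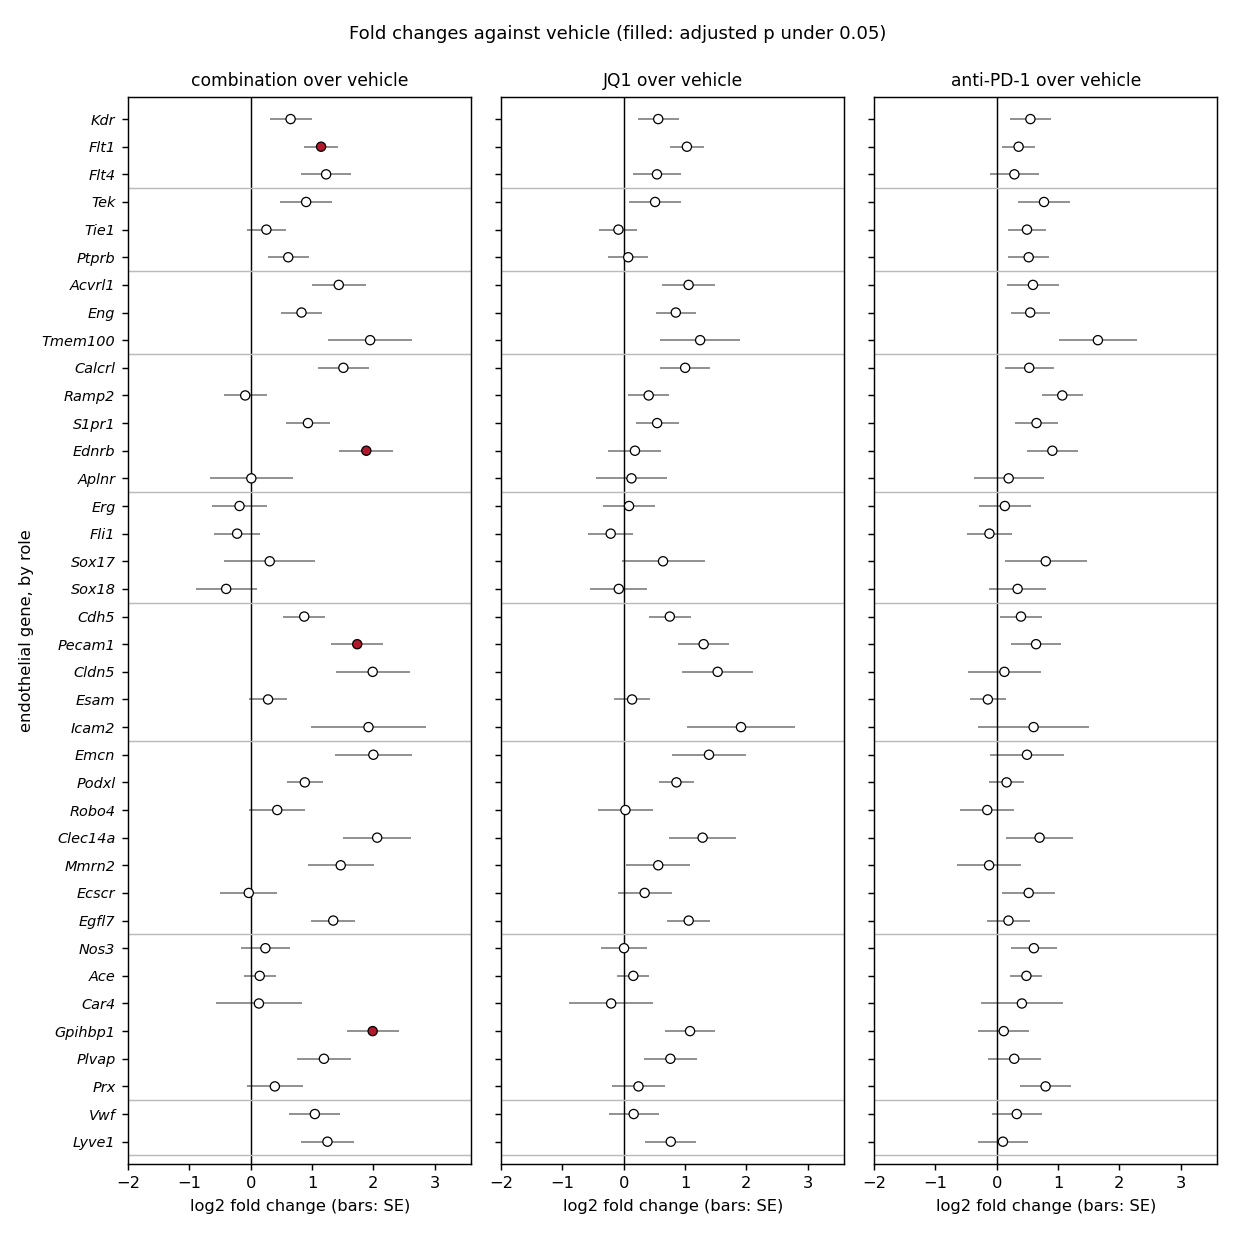
Log2 fold changes (horizontal axis, bars are SE) of the 38 genes in the combination, with JQ1 and with anti-PD-1, each over vehicle, with 2 libraries a group. Filled points passed an adjusted p of 0.05: Flt1, Ednrb, Pecam1 and Gpihbp1 in the combination, and none in the other panels.

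Averaging over both antibody states sets the 4 libraries with JQ1 against the 4 without it. In this comparison 6 of 38 genes rose and 0 fell: Flt1, Pecam1, Cldn5, Podxl, Egfl7 and Gpihbp1, with log2 fold changes of 0.79 to 1.70 (adjusted p between 0.0255 and 0.0432, edgeR's quasi-likelihood F-test, Benjamini-Hochberg adjusted). Of all genes tested, 4.22% rose and 4.05% fell, against 15.8% and 0% of the endothelial genes. All 4 libraries with JQ1 were above all 4 without it for 13 of 38 (34.2%), against 10.2% of all genes, and below for 0, against 9.35%. These 13 were Flt1, Acvrl1, Eng, Calcrl, Pecam1, Cldn5, Esam, Emcn, Podxl, Egfl7, Gpihbp1, Plvap and Lyve1. The median was 0.50, with 27 of 38 positive. All 6 calls ended with ribosomal RNA share as a term, where the median was 0.20. They also ended without combination replicate 2, anti-PD-1 replicate 1 or 2, or vehicle replicate 1 or 2. Those fits leave 1 library in a group and called fewer of all genes as well. Some of the 6 were lost without JQ1 replicate 1 or 2 or combination replicate 1. Over all fits with 1 library left out, log2 fold changes of the 6 genes lay between 0.64 (Podxl) and 2.07 (Cldn5).

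The 4 libraries with the antibody differed less from the 4 without it. edgeR's quasi-likelihood test called 0 of 38 endothelial genes, and 2 of 14085 genes in all (0.0142%). All 4 antibody libraries were above the others for 2 of 38 genes, Tmem100 and Ednrb, against 1.36% of all genes, and below for 0, against 1.25%. The median was 0.34 with 36 of 38 positive, and 3 genes had an unadjusted p under 0.05, namely Ednrb at 1.30 (SE 0.31), Tmem100 at 1.18 (SE 0.46) and Ptprb at 0.53 (SE 0.23). Of all genes, 10.1% had such a p, so the 3 of 38 were no larger a share. The smallest adjusted p in edgeR's test was 0.229, for Ednrb. DESeq2, limma voom and limma trend called 0 of 38 as well. In the interaction, which asks whether the combination departs from the sum of the single treatments on the log2 scale, the median was −0.18, and edgeR called 0 of 38 and 0% of all genes. Ramp2 alone of the 38 had an unadjusted p under 0.05, and DESeq2, voom and trend called 0 of 38 there; over all genes, 881 had such a p, DESeq2 called 17, and voom and trend called 0.

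Levels between genes can be compared only per length, and here only roughly, since the libraries were made by probe capture and probes differ in yield. Per kilobase of annotated exon, Ace was the highest of the 38 at 32.5 CPM per kilobase over all libraries. Podxl followed at 9.63, Ptprb at 8.53 and Cdh5 at 7.55 CPM per kilobase, and the lowest were Emcn at 0.605, Icam2 at 0.541 and Sox17 at 0.312. By total counts, the range was 79 for Icam2 to 14731 for Ace, so the values of Icam2, Tmem100, Sox17, Aplnr and Cldn5 rest on few reads. Exon bases of 9 of the 38 genes are shared with another annotated gene, most of all Ramp2, of which 33.4% lie in exons of Vps25 on the same strand, and Nos3, of which 25.2% lie opposite an antisense transcript; the sources used here do not say whether reads were counted by strand.

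All 3 VEGF receptors were clear of vehicle in the combination and with JQ1, and 1 of them, Flt1, passed the test. Of all genes tested, 29.5% and 26.3% were clear above vehicle in the same comparisons. Flt1 (chr5:147561604-147726011, GRCm38) encodes VEGFR1, which binds VEGF tightly and acts in large part as a decoy. It was at 47.6 and 48.6 CPM in the combination libraries, 37.4 and 51.3 with JQ1, 26.5 and 29.1 with anti-PD-1, and 22.8 and 20.6 in vehicle. All 4 libraries with JQ1 lay above all 4 without, and the log2 fold change was 1.15 (SE 0.28, adjusted p = 0.0462) in the combination and 0.91 (SE 0.20, adjusted p = 0.0291) for JQ1 over both antibody states, by edgeR's quasi-likelihood F-test, Benjamini-Hochberg adjusted. Kdr, which encodes VEGFR2, the main signalling receptor, was at 22.1 ± 1.43 CPM in the combination, 20.8 ± 7.90 with JQ1, 20.6 ± 2.81 with anti-PD-1 and 14.1 ± 1.02 in vehicle (SD, n = 2 each). Its value in the combination, 0.65 (SE 0.34), missed the test, although every treated library was above both vehicle libraries. Flt4, the VEGF-C receptor of lymphatic and sprouting endothelium, had 13.5 and 14.2 CPM in the combination against 4.89 and 6.89 CPM in vehicle. Its log2 fold change of 1.23 (SE 0.41) did not pass (adjusted p = 0.0918, edgeR).

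The Tie receptors and their phosphatase gave no call in any comparison. Ptprb encodes VE-PTP, the receptor phosphatase that restrains TIE2 and VE-cadherin signalling, and it was the most abundant of the 3. It was at 136 and 142 CPM in the combination, 78.1 and 113 with JQ1, 114 and 147 with anti-PD-1, and 63.7 and 118 in vehicle, and the JQ1 libraries lay between the vehicle libraries. Tek, which encodes the angiopoietin receptor TIE2, had a log2 fold change of 0.90 (SE 0.43) in the combination, 0.51 with JQ1 and 0.77 with anti-PD-1. Tie1, the partner receptor of TIE2, was at 16.0 and 18.8 CPM in the combination, 14.8 and 12.8 with JQ1, 19.8 and 21.5 with anti-PD-1, and 12.4 and 16.8 in vehicle. Only the anti-PD-1 libraries stood clear of vehicle for Tie1, and its log2 fold change was −0.09 (SE 0.31) with JQ1 and 0.26 (SE 0.32) in the combination.

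The 3 genes of BMP9 and ALK1 signalling were positive in all 3 comparisons with vehicle, without passing the test. Their libraries did not overlap with vehicle in any of them. Of all genes tested, 29.5% (combination), 26.3% (JQ1) and 14.4% (anti-PD-1) were clear above vehicle. Eng encodes endoglin, the BMP9 coreceptor, and was at 24.4 and 32.0 CPM in the combination, 30.8 and 26.8 with JQ1, 24.0 and 22.7 with anti-PD-1, and 12.2 and 19.7 in vehicle. Both vehicle libraries were the lowest, and the log2 fold changes were 0.83 (SE 0.33), 0.85 (SE 0.32) and 0.55 (SE 0.32) in the order combination, JQ1, anti-PD-1. Acvrl1, which encodes ALK1 itself, was at 1.44 (SE 0.44), 1.06 (SE 0.43) and 0.59 (SE 0.43). Tmem100, a gene known to be switched on by ALK1 signalling, had 2.10 and 2.14 CPM in the combination, 1.57 and 1.05 with JQ1, 1.68 and 1.78 with anti-PD-1, and 0.382 and 0.689 in vehicle. Its log2 fold changes were the highest of the 38 with anti-PD-1 at 1.65 (SE 0.64) and among the higher in the combination at 1.95 (SE 0.68), from 105 counts in all libraries together.

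The peptide and lipid receptors did not move together. Ednrb encodes the endothelin B receptor, which clears endothelin and marks airspace-facing capillary cells. It was at 7.58 and 6.92 CPM in the combination, 2.52 and 1.92 with JQ1, 3.84 and 3.47 with anti-PD-1, and 2.06 and 1.84 in vehicle. The combination stood far above all other groups, JQ1 overlapped vehicle, and Ednrb rose in the combination by a log2 fold change of 1.88 (SE 0.44, adjusted p = 0.0409, edgeR's quasi-likelihood test), against 0.18 (SE 0.43) with JQ1 and 0.91 (SE 0.42) with anti-PD-1. The interaction of 0.79 (SE 0.61, adjusted p = 0.855, edgeR) did not show that the combination exceeds the sum of the single treatments. Calcrl, the receptor for adrenomedullin and CGRP, was at 46.7 and 23.2 CPM in the combination, 25.3 and 23.3 with JQ1, 16.7 and 18.3 with anti-PD-1, and 8.32 and 15.8 in vehicle. Each library with JQ1 had more Calcrl than any without it, at 0.99 (SE 0.29, adjusted p = 0.0576, edgeR) for JQ1 over both antibody states.

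Ramp2, the partner protein that makes Calcrl an adrenomedullin receptor, went another way. It was at 7.58 and 11.04 CPM in the combination, 13.5 and 13.2 with JQ1, 22.0 and 20.4 with anti-PD-1, and 8.63 and 11.5 in vehicle. The anti-PD-1 libraries were highest and the combination libraries overlapped vehicle, with log2 fold changes of −0.09 (SE 0.35) in the combination, 0.41 (SE 0.33) with JQ1 and 1.07 (SE 0.33) with anti-PD-1. S1pr1, the sphingosine-1-phosphate receptor that keeps the barrier tight, was at 24.2 ± 5.08 CPM in the combination and 12.5 ± 3.596 CPM in vehicle (SD, n = 2 each). The log2 fold change was 0.93 (SE 0.36), which did not pass. Aplnr, the apelin receptor of general capillary cells, did not differ beyond its spread, at 2.47 ± 1.86 CPM in the combination, 2.42 ± 0.585 with JQ1, 2.52 ± 0.382 with anti-PD-1 and 2.22 ± 0.538 in vehicle (SD, n = 2 each).

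**Figure D3:**
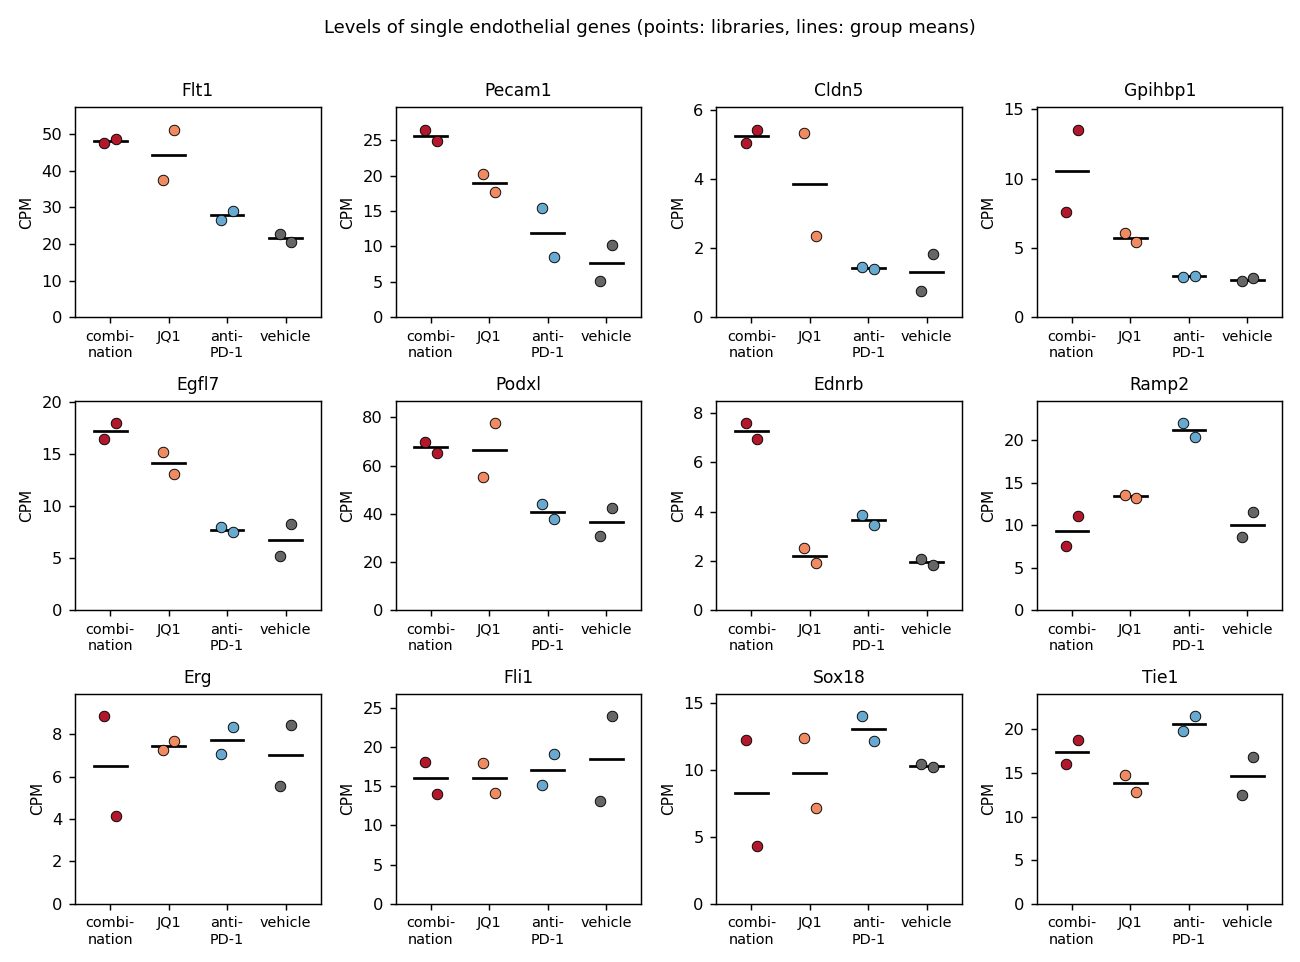
CPM (vertical axes, from 0) of 12 endothelial genes in each library, with lines at the group means of 2 libraries. Flt1, Pecam1, Cldn5, Gpihbp1, Egfl7 and Podxl are higher in both groups with JQ1, Ednrb is high in the combination, Ramp2 is high with anti-PD-1, and Erg, Fli1, Sox18 and Tie1 overlap vehicle in the combination.

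None of the 4 endothelial transcription factors was among the 13 genes that were higher in every library with JQ1. Since 10.2% of all genes tested were higher in this way, 0 of 4 does not set the factors apart from other genes. Their median log2 fold change in the combination was −0.20, with 1 of 4 positive. Clear above vehicle there were 0 of 4, beside 27 of 38 for the whole set and 29.5% of all genes tested. Fli1, an ETS factor shared by endothelium and blood cells, was at 18.1 and 14.0 CPM in the combination, 17.9 and 14.1 with JQ1, 15.2 and 19.1 with anti-PD-1, and 13.1 and 23.9 in vehicle. Erg, the ETS factor that maintains endothelial identity, was at 8.84 and 4.12 CPM in the combination, 7.24 and 7.67 with JQ1, 7.06 and 8.36 with anti-PD-1, and 5.57 and 8.43 in vehicle. Every group of Fli1 and Erg overlapped vehicle, with log2 fold changes of −0.22 (SE 0.38) and −0.18 (SE 0.45) in the combination. Sox18, a SOX factor of vessel and lymphatic development, was at 12.2 and 4.28 CPM in the combination, 12.4 and 7.15 with JQ1, 14.0 and 12.1 with anti-PD-1, and 10.4 and 10.2 in vehicle, so that the combination libraries lay on either side of vehicle. Sox17, a factor of arterial endothelium, had 1 count in combination replicate 1 and 12 in combination replicate 2, at 0.421 and 1.98 CPM, against 0.687 and 1.49 CPM in vehicle. The SE of 0.74 on its log2 fold change of 0.31 in the combination leaves changes of that size undetectable at this depth. Sox17 was at 1.89 and 1.57 CPM with JQ1 and 1.89 and 1.97 with anti-PD-1, both clear above vehicle. Sox18 too was clear above vehicle with anti-PD-1. In all, 1 of 4 factors was clear with JQ1 and 2 of 4 with anti-PD-1, against 26.3% and 14.4% of all genes tested.

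The junction and adhesion proteins had the highest median of the groups by role, 1.74 in the combination and 1.30 with JQ1, against 0.40 with anti-PD-1. All 5 genes were clear of vehicle in the combination and with JQ1, and 0 of 5 with anti-PD-1. Of all genes tested, 29.5%, 26.3% and 14.4% were clear above vehicle in that order. With anti-PD-1, 0 of 5 thus does not set these genes apart from other genes. Pecam1 (chr11:106654217-106750628, GRCm38) encodes CD31, the adhesion molecule of endothelial junctions that leukocytes and platelets also carry. It was at 26.5 and 24.9 CPM in the combination, 20.2 and 17.8 with JQ1, 15.5 and 8.45 with anti-PD-1, and 5.12 and 10.2 in vehicle. Pecam1 rose in the combination by a log2 fold change of 1.74 (SE 0.42, adjusted p = 0.0467) and by 1.20 (SE 0.29, adjusted p = 0.0391) for JQ1 over both antibody states, in edgeR's quasi-likelihood F-test, Benjamini-Hochberg adjusted. With any 1 library left out, its call in the combination was lost, at log2 fold changes of 1.31 to 2.31. Cldn5, the tight junction claudin of endothelium, was at 5.05 and 5.44 CPM in the combination, 5.35 and 2.35 with JQ1, 1.47 and 1.41 with anti-PD-1, and 0.764 and 1.84 in vehicle. Its libraries with and without JQ1 did not overlap, and Cldn5 rose by 1.70 (SE 0.42, adjusted p = 0.0397, edgeR) for JQ1 over both antibody states, but stood at 0.31 with ribosomal RNA share as a term.

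Cdh5, which encodes VE-cadherin and is the most abundant of the junction genes, moved less. It was at 37.5 and 42.2 CPM in the combination, 44.7 and 28.8 with JQ1, 32.6 and 24.7 with anti-PD-1, and 16.8 and 26.7 in vehicle. Both groups with JQ1 were clear of vehicle for Cdh5, and the log2 fold changes of 0.87 (SE 0.34) in the combination and 0.75 (SE 0.34) with JQ1 did not pass. Esam, an immunoglobulin-family molecule of endothelial junctions and platelets, was nearly level, at 18.1 and 17.8 CPM in the combination, 16.5 and 16.0 with JQ1, 12.4 and 14.3 with anti-PD-1, and 15.5 and 14.0 in vehicle. Although its 4 libraries with JQ1 were all above the others, its log2 fold change for JQ1 over both antibody states was 0.28 (SE 0.21). Icam2, a ligand of leukocyte integrins on resting endothelium, was at 0.842 and 2.14 CPM in the combination, 1.36 and 1.83 with JQ1, 1.05 and 0.188 with anti-PD-1, and 0.305 and 0.516 in vehicle. With 79 counts in all, its log2 fold changes of 1.92 (SE 0.93) and 1.91 (SE 0.88) in the combination and with JQ1 did not pass.

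Surface and secreted glycoproteins ranged from genes that rose to genes at vehicle level. Egfl7 (chr2:26580014-26593120, GRCm38), which encodes a secreted guide of vessel formation and hosts the endothelial microRNA miR-126, was at 16.4 and 18.0 CPM in the combination, 15.2 and 13.1 with JQ1, 7.96 and 7.51 with anti-PD-1, and 5.19 and 8.32 in vehicle. The lowest library with JQ1 was well above the highest without it, and Egfl7 rose by 1.11 (SE 0.25, adjusted p = 0.0322, edgeR) for JQ1 over both antibody states. Podxl encodes podocalyxin, a sialomucin of the vessel lumen that mesothelium also carries, and was at 69.9 and 65.1 CPM in the combination, 55.2 and 77.6 with JQ1, 43.9 and 37.9 with anti-PD-1, and 30.8 and 42.3 in vehicle. Podxl rose by 0.79 (SE 0.20, adjusted p = 0.0432, edgeR) in the same comparison. With any 1 library left out, the call of Podxl was lost, at log2 fold changes of 0.64 to 0.90. Emcn, a sialomucin of capillaries and veins, was at 7.15 and 4.61 CPM in the combination, 5.03 and 2.53 with JQ1, 2.24 and 1.78 with anti-PD-1, and 0.687 and 2.12 in vehicle. Emcn too was higher in every library with JQ1 than in any without, at 1.45 (SE 0.44, adjusted p = 0.0628, edgeR), short of the threshold.

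Clec14a and Mmrn2 encode a lectin of the endothelial surface and the matrix protein that it binds. Clec14a was at 5.89 and 12.0 CPM in the combination, 3.67 and 7.06 with JQ1, 3.14 and 4.04 with anti-PD-1, and 1.37 and 2.98 in vehicle. Mmrn2 was at 4.21 and 6.92 CPM in the combination, 3.67 and 2.44 with JQ1, 2.51 and 1.22 with anti-PD-1, and 2.29 and 1.84 in vehicle. Both genes were clear of vehicle in the combination and with JQ1, and their combination values of 2.06 (SE 0.56, adjusted p = 0.0577) and 1.47 (SE 0.54, adjusted p = 0.119) missed edgeR's threshold. Robo4, a receptor that stabilises vessels, was at 9.26 and 10.2 CPM in the combination, 8.08 and 6.71 with JQ1, 8.73 and 4.23 with anti-PD-1, and 5.27 and 9.18 in vehicle, with log2 fold changes of 0.43 (SE 0.46), 0.03 (SE 0.44) and −0.15 (SE 0.44). Ecscr, a small surface protein of endothelial cells, had −0.03 (SE 0.47) in the combination, 0.34 (SE 0.44) with JQ1 and 0.52 (SE 0.44) with anti-PD-1.

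In the combination, capillary enzymes and carriers split in the same way, with Gpihbp1 rising and the enzymes near vehicle. With anti-PD-1, 4 of 6 genes of this group (Ace, Nos3, Gpihbp1 and Prx) were clear above vehicle, against 14.4% of all genes tested. Gpihbp1 (chr15:75596628-75599481, GRCm38) encodes the anchor that carries lipoprotein lipase to the capillary lumen. It was at 7.58 and 13.5 CPM in the combination, 6.08 and 5.40 with JQ1, 2.86 and 3.005 with anti-PD-1, and 2.60 and 2.81 in vehicle. The 4 libraries without JQ1 lay within 2.60 to 3.005 CPM, and Gpihbp1 rose by 1.99 (SE 0.42, adjusted p = 0.0345) in the combination and by 1.48 (SE 0.30, adjusted p = 0.0255) for JQ1 over both antibody states, in edgeR's quasi-likelihood F-test, Benjamini-Hochberg adjusted. With ribosomal RNA share as a term these values were 0.29 and 0.40, neither called. Plvap, which forms the diaphragms of capillary openings, was at 12.96 ± 4.04 CPM in the combination, 9.75 ± 0.883 with JQ1, 7.03 ± 1.74 with anti-PD-1 and 5.72 ± 2.70 in vehicle (SD, n = 2 each). Its 4 libraries with JQ1 were above the other 4, at 0.83 (SE 0.31, adjusted p = 0.0993, edgeR).

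Ace encodes angiotensin-converting enzyme of the lung capillary wall and was the most abundant of the 38. It was at 157 and 172 CPM in the combination, 168 and 164 with JQ1, 195 and 222 with anti-PD-1, and 120 and 178 in vehicle. Ace was above both vehicle libraries only with anti-PD-1, at 0.48 (SE 0.26), and its log2 fold change was 0.15 (SE 0.26) in the combination. Nos3, the endothelial nitric oxide synthase, was at 0.24 (SE 0.40), 0.01 (SE 0.38) and 0.61 (SE 0.37) in the combination, with JQ1 and with anti-PD-1. Prx, which encodes periaxin, was at 0.39 (SE 0.45), 0.24 (SE 0.43) and 0.80 (SE 0.42) in that order. Its combination libraries, at 5.47 and 4.78 CPM, were also above vehicle, at 3.05 and 4.65 CPM. Car4, carbonic anhydrase 4 of airspace-facing capillary cells, had 1 count in combination replicate 1, and was at 0.421 and 4.61 CPM in the combination, 2.73 and 1.83 with JQ1, 4.40 and 2.54 with anti-PD-1, and 2.60 and 2.64 in vehicle. Ednrb rose in the combination, while Car4, which marks the same capillary cells, stood at 0.13 (SE 0.71). Likewise Gpihbp1 rose, and Aplnr, also known from general capillary cells, stood at 0.01 (SE 0.68) on 196 counts in all libraries together. Differences between genes were not tested.

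The large vessel and lymphatic markers were higher in the combination without passing. Vwf encodes von Willebrand factor, the clotting protein stored by endothelium of larger vessels and by platelets. It was at 42.9 and 87.5 CPM in the combination, 29.2 and 42.1 with JQ1, 34.2 and 45.7 with anti-PD-1, and 22.4 and 41.3 in vehicle. Combination replicate 2 alone stood out for Vwf, and its log2 fold change of 1.05 (SE 0.41, adjusted p = 0.141, edgeR) did not pass. Lyve1, the hyaluronan receptor of lymphatic vessels and of some macrophages, was at 11.3 ± 1.29 CPM in the combination, 8.02 ± 0.368 with JQ1, 5.05 ± 0.368 with anti-PD-1 and 4.68 ± 2.30 in vehicle (SD, n = 2 each). Every library with JQ1 exceeded every library without it for Lyve1, at 0.96 (SE 0.30, adjusted p = 0.0675, edgeR).

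Ratios of counts within a library do not depend on how libraries are scaled, and 4 were formed after the values had been seen, so they are given with no test. Counts of Pecam1 per count of Erg were 3.0 and 6.04 in the combination, 2.80 and 2.32 with JQ1, 2.20 and 1.01 with anti-PD-1, and 0.918 and 1.21 in vehicle. Summed junction genes per summed transcription factors gave 2.22 and 3.79 in the combination, 2.23 and 2.19 with JQ1, 1.66 and 1.18 with anti-PD-1, and 1.29 and 1.21 in vehicle. For both ratios every library with JQ1 was above every library without it. Calcrl per Ramp2 gave 6.17 and 2.10 in the combination, 1.87 and 1.76 with JQ1, 0.759 and 0.899 with anti-PD-1, and 0.965 and 1.37 in vehicle, again with no overlap between libraries with and without JQ1. Flt1 per Kdr overlapped, at 2.26 and 2.11 in the combination, 1.42 and 3.36 with JQ1, 1.42 and 1.29 with anti-PD-1, and 1.71 and 1.39 in vehicle.

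**Figure D4:**
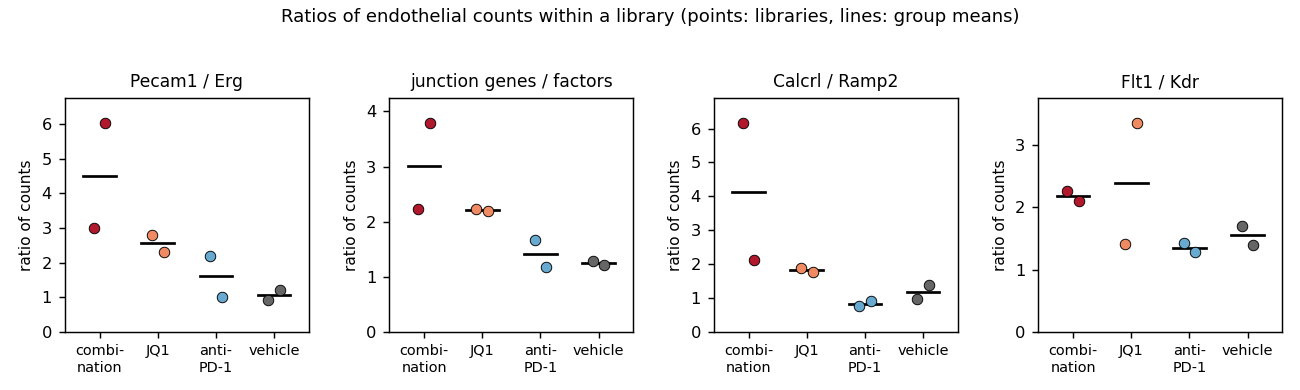
Ratios of counts within each library (vertical axes, from 0) for 4 pairs of endothelial genes or gene groups, with lines at the group means of 2 libraries. Pecam1 over Erg, junction genes over transcription factors and Calcrl over Ramp2 are higher in every library with JQ1 than in any without it, while Flt1 over Kdr overlaps between groups.

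Because 4 of the 38 genes encode ETS and SOX factors, promoters were searched for their core motifs, and 4 promoters are shown that hold an ETS core in genes that were and were not higher in every library with JQ1. RefSeq windows of 300 bases, from 250 before to 50 after the annotated start (GRCm38.p6), were found for 17 of the 38 genes, in 22 windows. CAGGAAG or CCGGAAG, on either strand, was in 6 of 17 genes (35.3%), against 20.9% of 32851 windows of all genes. Taken singly, CAGGAAG was in 29.4% against 13.3%, CCGGAAG in 5.88% against 8.86%, and the SOX core AACAAT in 23.5% against 10.7%; both ETS cores end in GGAAG. The share of genes counts any of a gene's windows, so genes with more windows have more chances than the single windows they are set beside. The genes with an ETS core were Calcrl, Erg, Emcn, Robo4, Egfl7 and Car4, so of the genes that rose Egfl7 had one, while the windows of Flt1, Ednrb and Cldn5 had none in these letters. Pecam1, Podxl and Gpihbp1 rose too, but no window was found for them. The 4 sequences below run 5′ to 3′ on the strand of the gene, with matches to CAGGAAG or its reverse complement in capitals, and lie at chr2:26580833-26581132 for Egfl7 (plus strand), chr3:137340828-137341127 for Emcn (plus strand), chr16:95459299-95459598 for Erg (minus strand) and chr9:37401722-37402021 for Robo4 (plus strand).
Egfl7: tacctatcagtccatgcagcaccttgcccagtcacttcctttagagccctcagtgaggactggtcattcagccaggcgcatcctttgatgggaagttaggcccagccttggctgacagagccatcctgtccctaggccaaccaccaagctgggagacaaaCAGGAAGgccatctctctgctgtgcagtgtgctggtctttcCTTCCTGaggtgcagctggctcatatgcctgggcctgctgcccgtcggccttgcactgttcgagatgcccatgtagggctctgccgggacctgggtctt
Emcn: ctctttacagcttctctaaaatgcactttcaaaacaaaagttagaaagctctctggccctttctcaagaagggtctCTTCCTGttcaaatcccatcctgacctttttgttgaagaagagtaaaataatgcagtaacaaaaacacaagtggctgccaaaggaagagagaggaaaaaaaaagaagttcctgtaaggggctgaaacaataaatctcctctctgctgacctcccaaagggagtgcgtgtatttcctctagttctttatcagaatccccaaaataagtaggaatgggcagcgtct
Erg: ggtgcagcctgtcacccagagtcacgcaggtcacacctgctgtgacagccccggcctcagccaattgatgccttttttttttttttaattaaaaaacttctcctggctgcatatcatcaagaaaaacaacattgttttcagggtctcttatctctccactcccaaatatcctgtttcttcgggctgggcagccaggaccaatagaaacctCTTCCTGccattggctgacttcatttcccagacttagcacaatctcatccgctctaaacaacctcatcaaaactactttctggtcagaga
Robo4: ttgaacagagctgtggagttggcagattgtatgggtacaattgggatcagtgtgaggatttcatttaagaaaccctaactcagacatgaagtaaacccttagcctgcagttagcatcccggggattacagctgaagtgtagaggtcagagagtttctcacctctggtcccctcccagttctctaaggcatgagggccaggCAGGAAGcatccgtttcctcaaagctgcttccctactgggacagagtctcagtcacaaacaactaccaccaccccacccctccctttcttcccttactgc
In the windows printed, Egfl7, which rose, holds 2 matches, and Emcn, which stood higher in every library with JQ1, holds 1. Erg and Robo4 hold 1 each, and for both genes libraries with and without JQ1 overlapped. Egfl7 and Erg have further windows that are not printed. Those of Egfl7 hold 1 match (chr2:26583615-26583914) and 0 (chr2:26586386-26586685), and those of Erg hold 0. A match is a description of the letters and not a bound site.

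Of 8 tested VEGF, angiopoietin and BMP ligands, 0 rose and 1 fell in the combination, with a median of −0.55. Vegfa, the main VEGF ligand, was at 259 and 192 CPM in the combination, 311 and 357 with JQ1, 462 and 658 with anti-PD-1, and 479 and 679 in vehicle. Vegfa fell by 1.36 on the log2 scale (SE 0.30, adjusted p = 0.0361) in the combination and by 1.05 (SE 0.21, adjusted p = 0.0247) for JQ1 over both antibody states, in edgeR's quasi-likelihood test, the opposite direction to its receptor gene Flt1. Bmp4 at −2.27 (SE 0.57) and Vegfb at −0.84 (SE 0.37) did not pass. Of 7 tested ligands and enzymes that serve the peptide and lipid receptors, 0 were called, with 5 positive and a median of 0.51 in the combination, and the smallest p for Sphk1 at 4.40 (SE 1.13), Sphk2 at 1.13 (SE 0.41) and Apln at −1.46 (SE 0.87). Sphk1, which makes the ligand of S1pr1, was at 7.997 and 109 CPM in the combination against 4.35 and 1.38 CPM in vehicle, so that 1 library carried its value.

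Of 11 coreceptors and BMP pathway genes, 0 rose and 1 fell in the combination, and of 11 Notch pathway genes, 0 rose and 2 fell. Id2, an inhibitor of basic helix-loop-helix factors and a BMP target in many cells, was at 67.3 and 49.4 CPM in the combination, 238 and 265 with JQ1, 215 and 234 with anti-PD-1, and 484 and 393 in vehicle. It fell by 2.91 (SE 0.28, adjusted p = 0.00712) in the combination and by 1.38 (SE 0.19, adjusted p = 0.00943) for JQ1 over both antibody states, in edgeR's test. Id2 fell with the antibody over both JQ1 states as well, by 1.54 (SE 0.19, adjusted p = 0.0498, edgeR). Id1 at −1.43 (SE 0.46) and Id3 at −1.13 (SE 0.37) in the combination did not pass. Hes1, a target of Notch signalling, fell by 1.996 (SE 0.41, adjusted p = 0.0327) in the combination and Jag2, a Notch ligand, fell by 1.37 (SE 0.31, adjusted p = 0.0389), both by edgeR, while Notch1 at −0.75 (SE 0.25) did not pass. Hes1, Id2 and Jag2 are expressed by epithelium too, so their values are those of the whole nodule.

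Among 12 tested genes of tip cells and angiogenic endothelium, 1 rose in the combination and 2 for JQ1 over both antibody states, and 0 fell. Adgrl4, an adhesion receptor of endothelial cells, was at 16.4 and 12.4 CPM in the combination, 10.2 and 7.76 with JQ1, 6.99 and 5.73 with anti-PD-1, and 3.21 and 5.34 in vehicle. It rose by 1.73 (SE 0.41, adjusted p = 0.0419) in the combination and by 1.11 (SE 0.28, adjusted p = 0.0422) for JQ1 over both states, and Col4a1, a basement membrane collagen, rose by 0.69 (SE 0.18, adjusted p = 0.0429) in the second of these (edgeR's quasi-likelihood test). Cxcr4 at −1.16 (SE 0.58) and Nid2 at 0.88 (SE 0.51) in the combination did not pass. Of 16 tested endothelial transcription factors beyond the 4 above, 0 were called in any comparison, and the combination median was −0.02. The smallest p were those of Klf2 at 1.71 (SE 0.47), Tal1 at 2.86 (SE 0.88) and Elk3 at −0.92 (SE 0.30). Of 7 genes listed for inflamed endothelium, 3 were tested and 0 called in the combination. Vcam1 stood at −1.96 (SE 0.54), Icam1 at 0.66 (SE 0.33) and Lcn2 at 0.30 (SE 1.05), and Csf3 had 0 counts in every library. These values too are those of the whole nodule and were not assigned to a cell type.

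**Figure D5:**
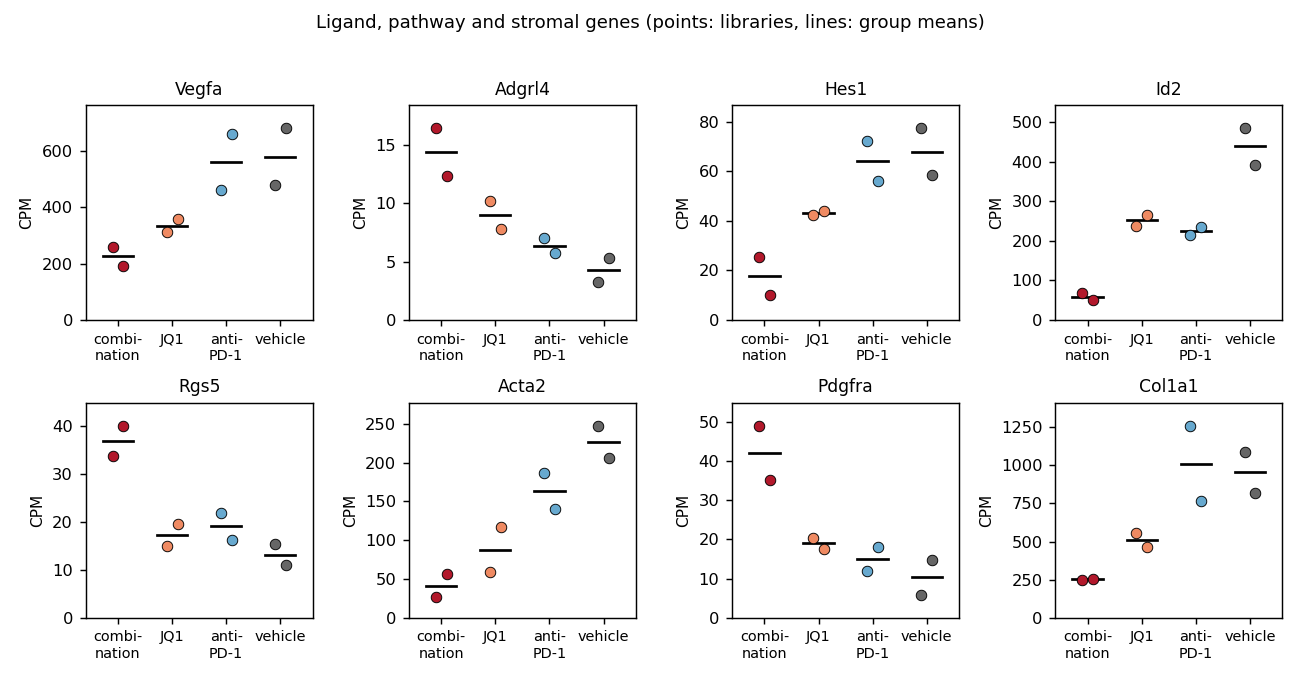
CPM (vertical axes, from 0) of ligand, pathway and stromal genes in each library, with lines at the group means of 2 libraries. Vegfa, Hes1, Id2, Acta2 and Col1a1 are lowest in the combination, and Adgrl4, Rgs5 and Pdgfra are highest there.

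Markers of other cell types moved in part with these results, and their part in them was not tested. Summed leukocyte markers, 7 of 10 tested and 0 called, were at 50.9 and 83.7 CPM in the combination, 67.1 and 44.6 with JQ1, 102 and 71.7 with anti-PD-1, and 65.2 and 74.0 in vehicle, overlapping in every group. Among them Csf1r stood at −0.59 (SE 0.35), Tyrobp at 1.04 (SE 0.70) and Ptprc, the common leukocyte antigen, at 0.21 (SE 0.40) in the combination. Platelet markers, 2 of 6 tested and 0 called, were at 3.37 and 2.14 CPM in the combination, 3.15 and 1.83 with JQ1, 2.10 and 1.502 with anti-PD-1, and 1.91 and 2.01 in vehicle, with Gp9 at 0 in 5 libraries. Itga2b, the platelet integrin, stood at 2.40 (SE 0.98) in the combination on 3 to 10 counts a library and Pf4 at −0.74 (SE 0.95), and neither passed; Pecam1, Esam and Vwf are shared with these cells. Mesothelial markers, 1 of 4 tested and 0 called, were at 51.8 and 81.1 CPM in the combination, 40.8 and 25.8 with JQ1, 0.699 and 14.8 with anti-PD-1, and 8.93 and 16.9 in vehicle, almost all from Msln. They were higher in every library with JQ1 than in any without, as was Podxl. Red cell genes, 5 tested and 0 called, ranged from 4.05 CPM in vehicle replicate 1 to 84.7 CPM in vehicle replicate 2. Hbb-bs, a beta globin, stood at −0.60 (SE 1.21) and Alas2, the haem synthesis enzyme of red cell precursors, at 0.69 (SE 1.61) in the combination, while Hba-a2 had 0 counts in both combination libraries.

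Of 10 tested pericyte and smooth muscle genes, 1 rose and 1 fell in the combination. The pericyte gene Rgs5 rose in the combination by 1.49 (SE 0.33, adjusted p = 0.0375, edgeR) and Acta2, smooth muscle actin, fell by 2.44 (SE 0.43, adjusted p = 0.0261, edgeR). Pdgfrb, the PDGF receptor of pericytes, was at 0.65 (SE 0.31) and did not pass. Among 9 tested fibroblast genes, Pdgfra at 2.02, Dcn at 2.58 and Inmt at 2.22 rose and Col1a1 fell by 1.92 in the combination, with edgeR adjusted p between 0.0178 and 0.0378. Lymphatic markers other than Flt4 and Lyve1, 5 tested and 0 called, summed to 19.4 and 22.1 CPM in the combination, 28.003 and 25.7 with JQ1, 20.0 and 25.5 with anti-PD-1, and 14.8 and 19.0 in vehicle. Mmrn1 at 1.86 (SE 0.93), Reln at 1.498 (SE 0.76) and Pdpn at −1.20 (SE 0.75), which alveolar type 1 cells share, had their smallest p in the combination. Prox1, the master factor of lymphatic identity, was at 1.68 and 0.824 CPM in the combination, 9.23 and 18.2 with JQ1, 2.31 and 0.939 with anti-PD-1, and 2.21 and 1.32 in vehicle, and is named after its values were seen. Both JQ1 libraries were far above all others for Prox1, at 2.96 (SE 0.57, adjusted p = 0.263, edgeR) over vehicle, which did not pass, while the other 4 genes stood between −0.55 and −0.01 with JQ1. Epithelial and tumour cell genes, 8 tested, summed to between 1680.5 and 3473 CPM in all libraries. This sum does not separate tumour cells from other epithelium. Of them Nkx2-1 fell in the combination by 1.63 (SE 0.34, adjusted p = 0.0327, edgeR), and of 8 alveolar type 1 genes Vegfa alone fell there. For JQ1 over both antibody states, the epithelial genes Epcam at 0.98 and Cdh1 at 0.84 rose, and Nkx2-1 at −1.08, Vegfa at −1.05 and Cldn18 at −0.86 fell (edgeR's adjusted p between 0.0247 and 0.0458).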

How the data were processed

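RNA was measured in 8 libraries of lung tumour nodules, 2 in each of 4 groups, from probe-captured coding sequence of frozen tissue, per the labels' protocols. The authors deposited a table of raw read counts per gene symbol, and a table of signal values that are the same counts divided by 1 size factor per library, as its values show. The submitters' processing notes name bcl2fastq, STAR, featureCounts and DESeq2 with builds mm10 and GRCm38; for versions, order, annotation and strand use the sources used here give nothing.

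Counts were fitted with edgeR 4.0.16 (R 4.3.3) with TMM factors, its default filter on low counts (14085 of 52459 symbols tested; 26033 had no count) and a robust quasi-likelihood fit of 1 mean per group over all 8 libraries (4 residual degrees of freedom, biological coefficient of variation 0.332). The 6 contrasts are given, each adjusted by Benjamini-Hochberg over all genes tested at 0.05. Fold changes use a prior count of 0.125, and the SE is the log2 fold change over the square root of F. CPM divides counts by the library's tested total times its TMM factor. Lengths and positions come from GENCODE vM21 and promoter windows from RefSeq, both on GRCm38. Library totals of 2719816 to 15224108 counts set the precision, which is lowest in combination replicate 1. The fit was tested on simulated data.

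The 38 genes and all gene lists were chosen with earlier results of these data known. Given with values in every library were members called in any contrast, the most abundant of each role group and the 3 highest and 3 lowest in each comparison with vehicle; of other lists, the called genes and the 3 of smallest p. Alternatives were scaling by RLE or by the upper quartile, no filter or a mean count of 50, DESeq2 1.42.0, limma 3.58.1 (voom, and trend on log2 of the normalized value plus 1 or 0.5), fits of only the libraries compared, ribosomal RNA genes left out, terms for sex and ribosomal RNA share, and each library left out. Added after seeing the data was edgeR on reads recovered from the normalized table, of which 99.9981% to 100% of values were whole within 0.05 reads; it called 676 genes in the combination and 1166 for JQ1 over both antibody states. Replicate numbers follow the order of deposit and pair nothing.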

Additional observations from a re-analysis of the deposited data

Results flagged for a closer look

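Ramp2 was picked out because the change with JQ1 went in opposite directions without and with the antibody, in every library. The share of all genes tested that do so was not counted, so the pattern is not shown to be particular to the endothelial genes. Without the antibody, it was at 13.5 and 13.2 CPM with JQ1 against 8.63 and 11.5 CPM in vehicle. With the antibody, it was at 7.58 and 11.04 CPM in the combination against 22.0 and 20.4 CPM with anti-PD-1. The interaction was −1.57 on the log2 scale (SE 0.48), with an unadjusted p of 0.00814 and an adjusted p of 0.745 in edgeR's quasi-likelihood F-test, so it failed the correction over all genes. Vps25, which shares 33.4% of the exon bases of Ramp2, was at 1.68 and 0.494 CPM in the combination, 1.05 and 0.872 with JQ1, 1.05 and 0.470 with anti-PD-1, and 0.916 and 0.631 in vehicle, and its own interaction was −0.01 (SE 1.11).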

How the results depend on the processing

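Of the 38 genes in the combination against vehicle, 9 were called with no filter on low counts, 8 by DESeq2, and 0 with only the libraries compared, with a sex term or with ribosomal RNA share as a term, where the median was 0.38. For JQ1 over both antibody states, 10 were called with no filter and 0 with the ribosomal RNA term, where the median was 0.20. Over all genes the combination gave 676 calls, against 1992 with no filter, 1628 by DESeq2, 245 with only the libraries compared, 339 with the sex term and 2 with the ribosomal term. JQ1 over both states gave 1166, against 2527 with no filter, 2117 by DESeq2 and 3 with the ribosomal term. The cause of these differences was not tested. The antibody over both states gave 2, against 426 with no filter and 182 by DESeq2, with 0 of the 38 genes among the calls of any alternative.

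With each library left out in turn, the calls among the 38 numbered 0 to 3 in the combination, 0 to 7 for JQ1 over both states and 0 in the other comparisons. The medians ran from 0.61 to 1.21 in the combination, 0.34 to 0.83 with JQ1, 0.24 to 0.78 with anti-PD-1, 0.35 to 0.62 for JQ1 over both states, 0.25 to 0.52 for the antibody over both states and −0.53 to 0.049 for the interaction. The 10 called results of single genes had 200 alternative values: 112 remained called, 88 did not, and 0 turned sign. The 112 include the fit of reads recovered from the normalized table, which repeats the same counts and so is no separate check. Many of the others rescale or refit the same 8 libraries, and most calls were lost with a library left out. No paired analysis was possible because the replicate numbers follow only the order of deposit. Fits of only the libraries compared were not run for the last 3 contrasts, which need all groups. With combination replicate 1 at 2719816 counts, genes such as Sox17 and Car4 rest there on 1 count each, and intervals would cover counting error only.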
